A study of Bos taurus with 11 samples.

Results

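Low lysine (LK) was compared with control medium (CTL) in bovine mammary epithelial cells (BMEC), and the response was described over the 12767 genes that averaged 200 or more raw counts across the 3 LK and 2 CTL libraries, out of 27607 Ensembl gene identifiers (46.2%). The rule used the level of a gene in all 5 libraries together and did not select on its difference between media. As 3 of the 5 are LK, a gene expressed mainly in LK passed it more easily than a gene expressed mainly in CTL. The cells were primary epithelial cells from the mammary tissue of lactating Holstein cows, passaged in culture and differentiated with insulin, prolactin and hydrocortisone, and neither the number of cows nor whether replicates came from different cows is given in the sources used here. CTL medium held 80 µM lysine, 20 µM methionine and 40 µM histidine, and LK medium held 20 µM lysine with the other amino acids unchanged, each for 60 h. Media low in another amino acid served for comparison, LH with 10 µM histidine and LM with 5 µM methionine, each with the lysine of CTL, each for the same time, and CTL replicate 3 was not analysed here. Replicates were culture wells as far as the study states, so p-values and intervals measure a spread between wells, which may be technical. That spread was pooled over the CTL, LK, LH and LM libraries of the fit, although the CTL pair was wider apart than pairs of LK libraries. The mammary identity of the cells could not be checked against markers, because identifiers could not be matched to gene names.

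Lysine is an essential amino acid that mammary cells take from blood through cationic amino acid transporters, and its supply often limits milk protein in dairy cows. When an amino acid runs short, uncharged transfer RNA activates the kinase GCN2, translation of most messages slows and the transcription factor ATF4 is made, which turns on genes for amino acid uptake and synthesis. The kinase complex mTORC1, which promotes protein synthesis and growth, is restrained at the same time.

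Depth was similar in both groups, with 236844632 and 242477133 reads counted on genes in CTL and 243814561 to 253869127 in LK, and the 12767 genes held 99.9% of the reads in each library. CTL libraries nevertheless had more genes without reads than LK libraries, as LM libraries did. Among 889 genes averaging 50 to 100 counts in the 5 libraries, which lie below the limit, 26.7% and 19.0% had no read in CTL replicates 1 and 2, against 2.25% to 7.20% in LK, 5.29% to 12.7% in LH and 28.6% and 17.0% in LM replicates 1 and 3. Because 3 of those 5 libraries are LK, the share was also taken over 879 genes averaging 50 to 100 counts in the LH and LM libraries of the fit, a choice made after seeing the data, and was 34.1% and 22.5% in CTL and 2.84% to 11.4% in LK. Lower expression of such genes in CTL and less complete detection cannot be told apart here. The study lists a lower percentage of aligned reads for both CTL libraries than for any LK or LH library, with LM replicates 1 and 3 between. The part of this difference in the genes without reads was not tested. Among the 12767 genes themselves, 21 had no read in at least 1 CTL library and 2 had none in at least 1 LK library.

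At the thresholds of the study (FDR under 0.05 and at least a 2-fold change), 204 genes were higher and 282 lower in LK than in CTL by the quasi-likelihood test of edgeR after Benjamini-Hochberg adjustment. These differentially expressed genes (DEG) made up 1.60% and 2.21% of the genes, against 1.49% and 1.62% of all 18345 genes tested. The DEG rose by a median of 1.40 on the log2 scale (median standard error 0.21) or had a median log2 fold change of -1.53 (0.30) where lower. Most of the transcriptome moved little. The median absolute log2 fold change was 0.20 over the 12767 genes, against 0.28 over all genes tested, and 10479 genes (82.1%) changed by less than 0.5 on the log2 scale. For 10187 genes (79.8%) the 95% interval of the fold change lay within 2-fold in either direction, whereas 2094 genes were neither DEG nor bounded in this way. These are bulk libraries, in which fewer cells of a type and less RNA per cell cannot be told apart. The excess of lower over higher DEG depended on both control libraries: there were 233 higher and 229 lower when CTL replicate 1 was left out, and 351 higher and 340 lower when CTL replicate 2 was.

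**Figure D1:**
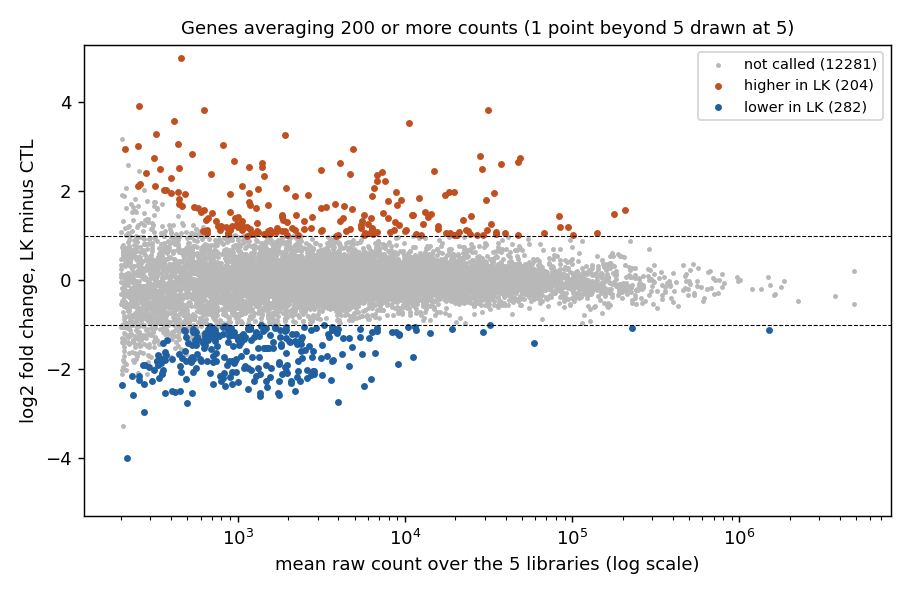
Log2 fold change of LK relative to CTL (vertical) against the mean raw count over the 5 libraries (horizontal, log scale) for the 12767 genes, with the 204 higher and 282 lower DEG in colour and dashed lines at a 2-fold change; 1 gene without reads in CTL is drawn at 5. Most blue points lie below 5000 counts, and the coloured point furthest to the right, at 1509590 counts, is blue.

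With FDR alone and no limit on fold change, 1280 genes were higher (10.0%) and 1142 lower (8.94%) in LK, against 7.36% and 6.31% of all genes tested. The 3 LK libraries all lay above both CTL libraries in 3341 genes (26.2%, against 21.3% of all genes tested) and all below in 2945 (23.1%, against 18.1%). Groups did not overlap in any of the 204 higher DEG, and they overlapped in 5 of the 282 lower DEG, 277 being separate. The 95% interval lay wholly past a 2-fold change in 90 higher and 111 lower DEG, so the fold of the other DEG could be less than 2.

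Changes past 8-fold were rare and occurred almost entirely among higher genes. The rule bears on this, since 3 of the 5 libraries in its mean are LK and some DEG passed it through a single medium. In CTL 27 higher and 0 lower DEG averaged under 200 counts, and in LK 0 higher and 31 lower DEG did. Of the higher DEG, 116 changed by 1 to 1.5 on the log2 scale, 41 by 1.5 to 2, 36 by 2 to 3 and 11 by 3 or more, 9 of these with reads in each library. Of the lower DEG, 136, 78, 67 and 1 fell in the same ranges. Only 3 DEG had a library without reads. In the first, both CTL libraries had 0 reads and the LK libraries 780, 818 and 708. Over an assumed floor of 6 counts in each CTL library, the LK mean was 122-fold higher. That floor is 3 read pairs if both mates of a pair were counted. It does not allow for incomplete detection in CTL, so the ratio is not a lower limit. In the second the CTL libraries had 0 and 104 reads and the LK libraries 611, 536 and 821. The third was the lower DEG with the largest change, with 784 and 204 reads in CTL and 0, 0 and 100 in LK. Without such genes the largest rise was 3.92 on the log2 scale and the largest fall -2.96. Among the 5 largest rises of this kind, standard errors reached 1.34 and edgeR adjusted p 0.0383, with mean counts from 256.6. Among the 5 largest falls they reached 0.90 and 0.0434, with mean counts from 237.6.

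The 10 higher DEG with the smallest p-values rose by 1.5 to 3.84 on the log2 scale (standard errors 0.063 to 0.120, edgeR adjusted p from 1.91e-36 to 7.85e-26) and averaged 14915 to 207472 counts. The 10 lower DEG with the smallest p-values had log2 fold changes of -2.73 to -1.08 (standard errors 0.049 to 0.162, edgeR adjusted p from 1.92e-27 to 1.16e-16) and averaged 3988 to 1509590 counts. Libraries of the 2 media did not overlap in any of these 20 genes. The table pairs no symbol with its identifiers, so the roles of these genes are not stated, and 2 in each direction are given by identifier.

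ENSBTAG00000007881 had the smallest p-value of all. Its normalized counts were 3423 and 3301 in CTL and 49223, 44356 and 50480 in LK. The LK libraries all lay far above both CTL libraries, and the mean ratio of LK to CTL was 14.3. The log2 fold change was 3.84 (standard error 0.11, edgeR adjusted p = 1.91e-36). LH libraries had 16194, 16714 and 21023 normalized counts and LM replicates 1 and 3 had 14466 and 11010, so that every library of the other media lay between CTL and LK. In direct contrasts LK exceeded LH by 1.42 on the log2 scale (standard error 0.09, edgeR adjusted p = 5.01e-20) and LM by 1.91 (0.10, edgeR adjusted p = 8.32e-23).

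ENSBTAG00000052665 was higher in LK by 2.76 on the log2 scale (standard error 0.09, edgeR adjusted p = 8.50e-34). CTL libraries had 11796 and 9231 normalized counts and LK libraries 67177, 71949 and 74063, with no overlap and a ratio of means of 6.76. The order of the other media was the reverse of the preceding gene, with 31355 to 38093 normalized counts in LH and 48677 and 49412 in LM. LK exceeded LH by 1.05 on the log2 scale (standard error 0.07, edgeR adjusted p = 1.92e-17) and LM by 0.54 (0.08, edgeR adjusted p = 4.26e-06), the latter short of a 2-fold difference.

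ENSBTAG00000007583 was the lower DEG with the most reads and ranked number 10 by level among the 12767 genes. Its normalized counts were 2096656 and 2337761 in CTL and 1083701, 1031363 and 970310 in LK. It took 0.904% of the reads in CTL and 0.430% in LK, with a log2 fold change of -1.11 (standard error 0.05, edgeR adjusted p = 1.92e-27). LH libraries, between 1674136 and 1964329, and LM replicates 1 and 3, at 1447523 and 1348562, lay between CTL and LK. The direct log2 differences were -0.80 from LH (standard error 0.04, edgeR adjusted p = 9.91e-22) and -0.44 from LM (0.05, edgeR adjusted p = 5.93e-10).

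ENSBTAG00000011839 had 94362 and 94562 normalized counts in CTL and 36208, 33580 and 36976 in LK, a log2 fold change of -1.41 (standard error 0.07, edgeR adjusted p = 7.50e-26). LM replicates 1 and 3 had 37038 and 38341, close to LK, LM replicate 2 had 32282, below each LK library, and LH libraries had 69278 to 72001. The log2 difference of LK from LM was -0.08 (95% interval -0.22 to 0.05, edgeR adjusted p = 0.606), so a difference was not detected, whereas that from LH was -0.98 (0.06, edgeR adjusted p = 2.08e-19).

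**Figure D2:**
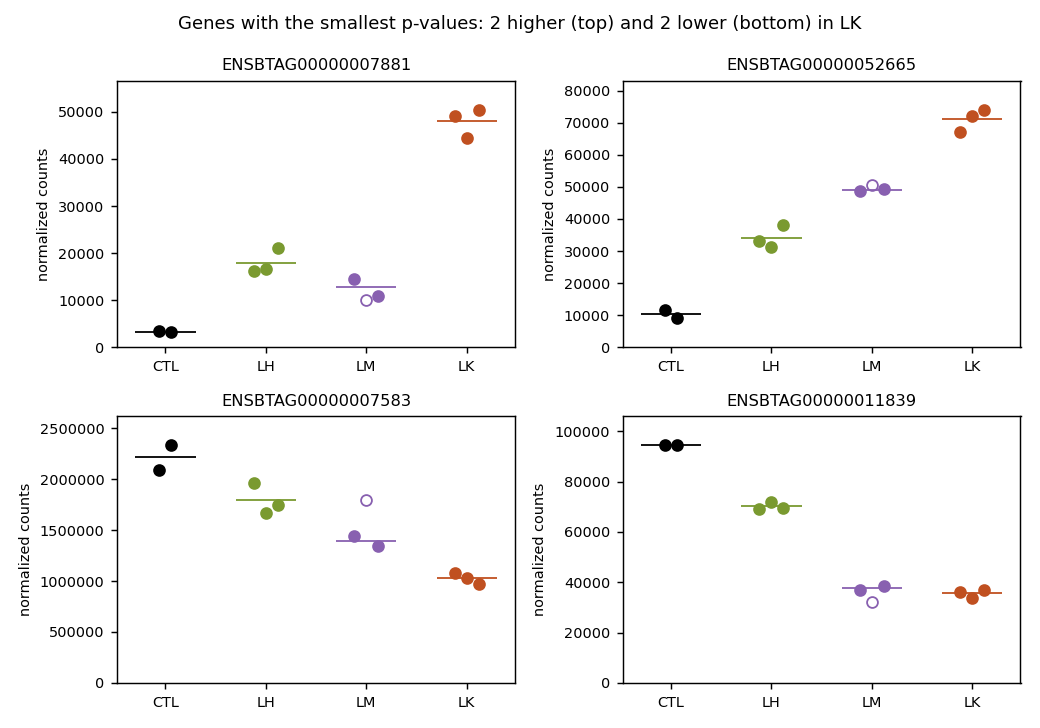
Normalized counts (vertical, from 0) of 4 genes in each library of CTL, LH, LM and LK; points are libraries, lines are group means and the open circle is LM replicate 2, which the study left out and which is not in the mean. The 2 upper genes are highest in LK, at 44356 or more and 67177 or more, and both lower genes have their lowest group mean there, although LM replicate 2 lies below LK for the second.

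The balance of higher and lower DEG differed between levels of expression, to an extent that depended on how level was measured. The genes were split into 4 classes of mean raw count, with limits chosen after seeing the data. Since 3 of the 5 libraries behind this mean are LK, a gene that rose was placed higher and a gene that fell lower than its CTL level, which adds to the pattern. Among 2117 genes averaging 200 to 1000 counts, 51 DEG were higher and 127 lower in LK, and among 3780 genes averaging 1000 to 5000, 70 were higher and 129 lower. Above 5000 counts the balance was the other way, with 50 higher and 21 lower of 4487 genes up to 20000 counts and 33 higher and 5 lower of 2383 genes beyond. DEG were also less frequent there, at 1.58% and 1.59% of genes against 8.41% and 5.26% in the classes below. With FDR alone and no limit on fold change, the share of genes called rose from class to class instead. From the lowest to the highest class 52, 294, 524 and 410 genes were then higher, and 132, 316, 324 and 370 lower. Median changes of higher DEG were 1.93, 1.31, 1.37 and 1.13 on the log2 scale from the lowest to the highest class, and those of lower DEG were -1.71, -1.52, -1.17 and -1.11.

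The classes were therefore also set by the mean of the LH and LM libraries of the fit, which are on neither side of the comparison, although these media shifted many of the same genes. From the lowest to the highest class there were then 56, 73, 49 and 25 higher and 128, 122, 21 and 6 lower DEG, with 1 higher and 5 lower under 200 counts. With classes set by the unweighted mean of the CTL and LK means, there were 58, 65, 52 and 28 higher and 114, 139, 23 and 6 lower DEG, with 1 higher and 0 lower under 200. The excess of lower DEG below 5000 counts and of higher DEG above was present on both of these measures. With classes set by CTL alone, which places genes the other way, it was not present throughout, at 68, 59, 38 and 12 higher against 64, 168, 43 and 7 lower DEG. A further 27 higher and 0 lower DEG had under 200 counts in CTL, so that below 1000 CTL counts higher DEG outnumbered lower ones. With classes set by LK alone there were 40, 71, 52 and 41 higher and 164, 72, 11 and 4 lower DEG. The class of 1000 to 5000 counts was then nearly even, and a further 0 higher and 31 lower DEG had under 200 counts in LK.

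Counts by class also varied with the libraries in the fit, here with the classes of the 5-library mean, so that the placing of genes is the same in each. When CTL replicate 1 was left out the lowest class had 60 higher and 84 lower DEG, the second 94 and 119, the third 52 and 19 and the highest 27 and 7. When CTL replicate 2 was left out the counts were 137 and 161, 135 and 154, 48 and 21, and 31 and 4. A fit to all 11 libraries, LM replicate 2 included, gave the lowest class 20 higher and 62 lower DEG. Among DEG that were called whichever of the 5 libraries was left out, 23 were higher and 43 lower in the lowest class, 41 and 92 in the second, 35 and 15 in the third and 25 and 3 in the highest. CTL replicates differed from each other by a median of 0.641 on the log2 scale in the lowest class, 0.282 and 0.146 in the next and 0.0813 in the highest. Pairs of LK replicates differed by 0.337 to 0.404, 0.155 to 0.175, 0.0794 to 0.0911 and 0.0479 to 0.0547, so the CTL pair was the wider in each class. Of the 23 genes with no read in 1 or more of the 5 libraries, 23 averaged under 1000 counts. The median log2 fold change over all genes of the lowest class was -0.14, against 0.03, 0.04 and 0.01 in the others. The part of the zeros and of the wider spread in CTL in the direction of DEG at low counts was not tested.

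**Figure D3:**
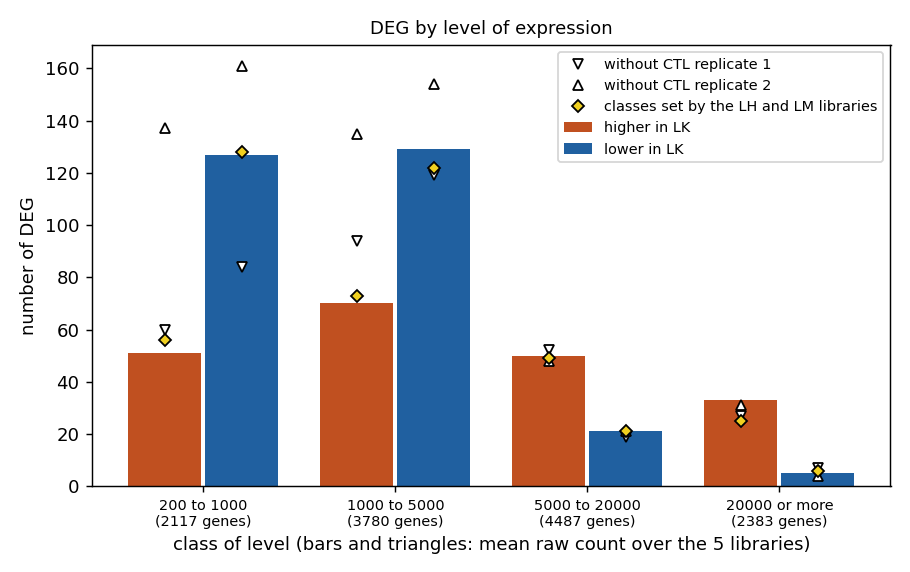
Number of DEG higher (orange) and lower (blue) in LK for 4 classes of mean raw count over the 5 libraries, with triangles for the numbers when CTL replicate 1 or 2 was left out and diamonds for classes set by the mean of the LH and LM libraries. The 5-library mean is weighted towards LK, which adds to the pattern. Lower DEG outnumber higher ones in both classes below 5000 counts (127 against 51 and 129 against 70 for bars, 128 against 56 and 122 against 73 for diamonds) and not in those above.

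Precision rose with level. The median standard error of the log2 fold change was 0.50, 0.19, 0.11 and 0.08 from the lowest to the highest class, and the 95% interval lay within a 2-fold change for 16.7%, 82.9%, 97.3% and 97.8% of genes. A change under 2-fold was therefore mostly not detectable below 1000 counts, where 52 genes were higher and 132 lower with FDR alone, 1 and 5 more than at both thresholds. In the highest class 410 genes were higher and 370 lower with FDR alone, although the median absolute log2 fold change was 0.14.

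Abundant transcripts took a smaller part of the reads in LK than in CTL. The 100 most abundant genes, each averaging 250447 counts or more, held 29.1% and 29.2% of the reads in CTL and 26.7% to 26.8% in LK, and the groups did not overlap. The corresponding shares were 27.6% to 29.3% in LH and 27.1% and 26.8% in LM replicates 1 and 3. With 3 libraries against 2, an exact permutation test of such a share cannot give a p-value under 0.1, and none is given. Of these 100 genes 1 was a DEG, ENSBTAG00000007583, while 14 were higher and 43 lower with FDR alone.

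DEG represented a small share of the reads. The 204 higher DEG held 0.473% ± 0.0077 of the reads in CTL (SD, n = 2) and 1.31% ± 0.033 in LK (SD, n = 3), and the 282 lower DEG held 1.46% ± 0.069 in CTL and 0.656% ± 0.029 in LK. These genes were selected on the same libraries, so the shares describe the size of the response and do not test it. Most of the fall came from few genes, since the 10 lower DEG with the largest change in normalized counts carried 75.6% of it, against 43.1% of the rise for the 10 largest among higher DEG. ENSBTAG00000007583 alone carried more of the fall in read share than the other lower DEG together. It held 0.854% and 0.953% of the reads in CTL and 0.406% to 0.452% in LK. Apart from it, the lower DEG held 0.560% and 0.558% of the reads in CTL and 0.221% to 0.232% in LK.

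**Figure D4:**
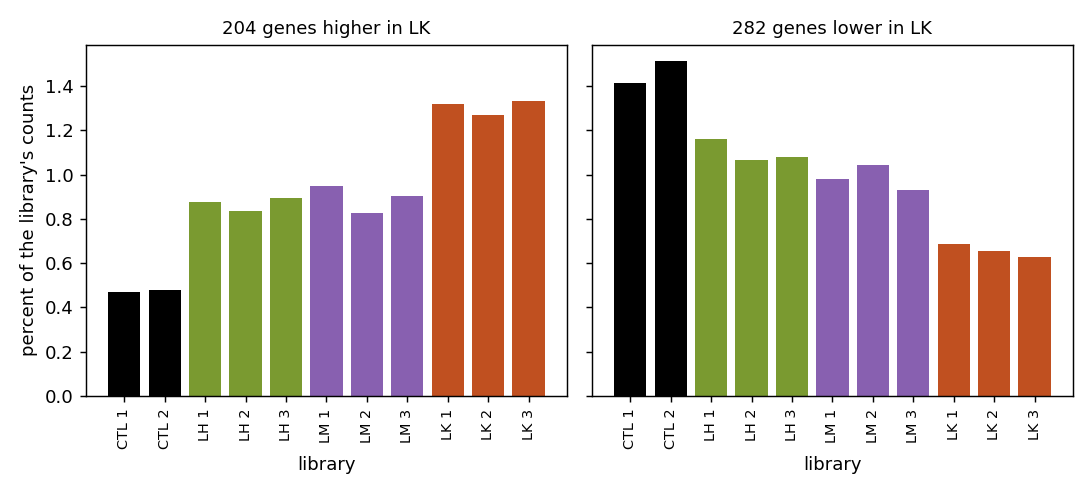
Percent of each library's counts (vertical, from 0) on the 204 higher DEG (left) and the 282 lower DEG (right) in all 11 libraries, coloured by medium. LK libraries reach 1.27% to 1.33% on the left and 0.627% to 0.684% on the right, with LH and LM libraries between CTL and LK in both panels.

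The other media had smaller median changes at the same DEG. The median of the DEG in a library, relative to the CTL mean, was 2.62 to 2.69 in LK for higher genes, 1.75 to 2.01 in LH and 1.81 and 1.96 in LM, and for lower genes 0.332 to 0.355, 0.552 to 0.562 and 0.575 and 0.589. Log2 fold changes against CTL had medians of 0.92 in LH and 0.90 in LM at the higher DEG, and of -0.82 and -0.73 at the lower DEG. The genes were selected on LK and the 3 comparisons share the CTL libraries, so these medians are given side by side only.

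Direct contrasts, which do not use CTL as a side, put LK apart from both media at a minority of these genes. Of the 12767 genes, 85 (0.666%, against 0.496% of all genes tested) differed between LK and LH at both thresholds, and 71 of these were DEG, 23 of them higher in LK than in CTL and LH and 48 lower than in both. Between LK and LM, 129 genes differed (1.01%, against 0.861%), of which 114 were DEG, 45 higher and 69 lower in LK. With FDR alone, 109 of the 204 higher DEG (53.4%) were also higher in LK than in LH and 88 (43.1%) higher than in LM, against 3.69% and 2.93% of all genes tested. In the same way 138 of the 282 lower DEG (48.9%) were lower than in LH and 124 (44.0%) lower than in LM, against 3.52% and 2.45%. Both held at 73 higher and 95 lower DEG. A single higher DEG was lower in LK than in LM with FDR alone. The median difference of LK from LH was 0.57 on the log2 scale at higher DEG and -0.78 at lower DEG, and that from LM 0.54 and -0.88. As the same LK libraries selected the DEG and enter these contrasts, these counts and medians favour LK and are a description. With LM replicate 2 in the fit, 41 DEG differed between LK and LH in place of 71.

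**Figure D5:**
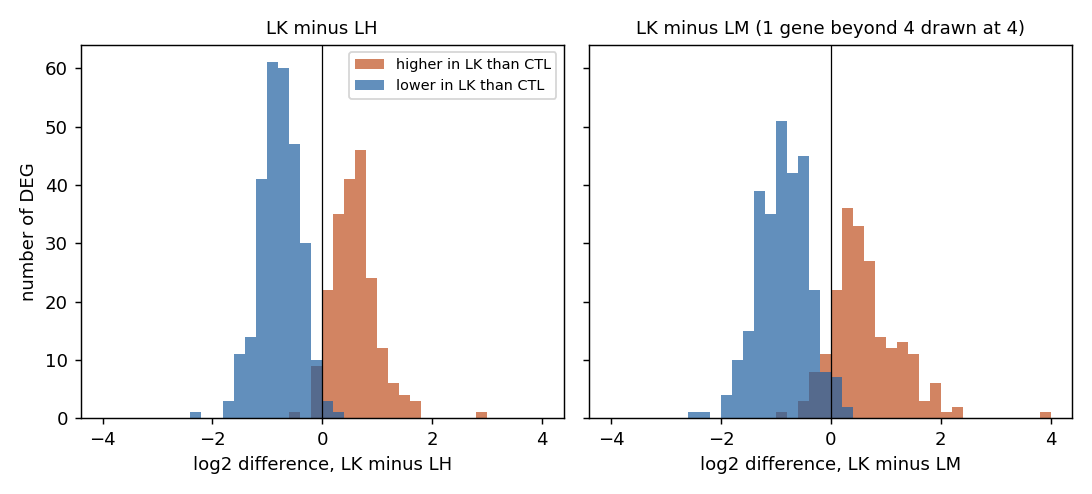
Number of DEG (vertical) by their log2 difference of LK from LH (left) and from LM (right), for genes higher (orange) and lower (blue) in LK than in CTL; 1 gene past 4 is drawn at 4. Most orange genes lie right of 0 and most blue genes left of it, with medians of 0.57 and -0.78 on the left and 0.54 and -0.88 on the right.

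Calls were compared gene by gene across fits. Of the DEG, 124 higher and 153 lower were called in the same direction whichever CTL or LK library was left out. Under all 13 other fits, which add other size factors, other limits on low counts, DESeq2, other sets of libraries and a replicate block, 117 higher and 150 lower genes kept their call, 116 and 150 of them with reads in each of the 5 libraries. No DEG was called in the opposite direction in any of these fits. At the limit of the rule the gene just inside averaged 200.2 counts and the gene just outside 199.8. There were 43 DEG among 857 genes averaging 200 to 400 counts and 13 among 789 genes averaging 100 to 200.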

How the data were processed

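RNA-Seq libraries of BMEC were analysed from the raw counts per gene that the authors deposited, obtained with fastp, STAR on ARS-UCD1.2 and featureCounts on an Ensembl annotation. How featureCounts treated read pairs and strand was not given in the sources used here. Each library had more counts than the read pairs listed for it in the study, which a single count per pair would not readily give, and 73.5% of the 4050 values between 1 and 20 in the CTL and LK libraries were even. If both mates were counted, the limit of 200 counts is 100 read pairs. Each count column was used.

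In R 4.3.3, edgeR 4.0.16 was fitted to 10 libraries in 4 groups (LM replicate 2, which the study excluded on quality checks, was left out) with TMM normalization and the quasi-likelihood test; the study used DESeq2, which served here as an alternative (version 1.42.0). Genes with more than 10 reads in sum were tested, 18345 in all, and p-values were adjusted over all of them. CPM on TMM library sizes, times the mean total of the libraries, gave normalized counts. Standard errors came from the F statistic. Plots used matplotlib 3.10.9 (Python 3.11.15).

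Members, lists and tests were chosen with earlier results of these data known. The rule for named genes was the DEG with the smallest p-values, those with the largest changes, and gene lists. Of 37063 reference genes 0 carried an Ensembl identifier and 0 identifiers were matched, so the lists of 638 symbols were not used and, as that rule provides, 2 identifiers in each direction are printed. The classes of level and the measures that set them, the alternatives for LK against LH and LM, and the floor of 6 counts were added after seeing the data.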

Additional observations from a re-analysis of the deposited data

How the results depend on the processing

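The total of 486 DEG lay between 372 and 520 across DESeq2 (520), edgeR with DESeq2's size factors, unscaled totals, filterByExpr or every gene kept, a fit to the 5 libraries alone and one to all 11 (372). With FDR alone 2422 genes were called, 1280 higher and 1142 lower. Over genes averaging 1000 or more counts there were 308 DEG, 155 of them lower. Leaving out a CTL or LK library gave 448 to 691 DEG, 187 to 351 higher and 229 to 340 lower, and the upper ends are those without CTL replicate 2 (351 higher). Of the DEG, 71 differed from LH (41 with all 11 libraries, 63 to 76 without single libraries of the 10) and 114 from LM (88 to 130 without single libraries). With the replicate number as a block there were 475 DEG, and no count moved by over 1.5 times; same-numbered libraries shared only a number, with correlations of their deviations from -0.039 to 0.076 over 12 pairs, and 4 of 10 libraries correlated best with their own number. The 4 printed genes passed both thresholds in each fit. Below 1000 counts the 95% interval lay within a 2-fold change for 16.7% of genes.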
